A study of Mus musculus with 9 samples.

Results

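The BCL2 family of proteins governs whether mitochondria release the factors that start apoptosis, and 10 of its genes were followed in MyC-CaP cells treated with asporin (ASPN). They were taken by gene symbol from a list that was drawn up with earlier results of these data known, and all 10 were found among the 15384 protein-coding genes of the count table and passed the filter on low counts in all 3 comparisons. MyC-CaP cells are a prostate cancer line of the mouse, derived from a tumor of a mouse in which a probasin promoter drives a human MYC transgene in the prostate epithelium. ASPN is a secreted stromal protein, made in tumors by cancer-associated fibroblasts. All 9 libraries come from this 1 cell line, starved for 6 to 12 hours in medium without serum and calcium. The 3 libraries of 0 hours were collected at the start of treatment, although their labels name ASPN as the treatment too, and 3 libraries each were collected 12 and 24 hours after 100 ng/mL recombinant mouse ASPN was added. No library of cells kept for 12 or 24 hours without ASPN was analysed here, so the effect of ASPN and that of the hours in culture cannot be told apart. The replicates are labeled as biological, but wells of 1 line plated in triplicate measure the spread between cultures of that line only.

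In this family, BCL2, BCL-XL (from Bcl2l1) and MCL1 are anti-apoptotic and hold the death-promoting members in check. BAX and BAK (from Bak1) are the effectors that, once active, form pores in the outer mitochondrial membrane and let cytochrome c out. The BH3-only proteins carry stress signals to them: BID and BIM (from Bcl2l11) can activate BAX and BAK and also bind the anti-apoptotic members, PUMA (from Bbc3) binds all anti-apoptotic members, NOXA (from Pmaip1) binds mainly MCL1, and BMF is a sensitizer that neutralizes BCL2-like proteins. Many of these proteins are regulated by cleavage, phosphorylation and turnover, which RNA counts do not measure, and counts per gene do not separate the splice forms of Bcl2l1, Mcl1 or Bcl2l11.

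The counts on all genes of the table totaled 41881191 to 52993821 per library, which puts a floor of 3 counts at 0.0566 to 0.0716 CPM (counts scaled by library size). The 10 genes lay far above this floor, with 492 counts (Bmf, 24 hours) to 13625 counts (Bcl2l1, 0 hours) per library. The 24 hour libraries stood apart in their make-up. The 13 mitochondrially encoded genes took 2.60% to 2.71% of the counts at 0 hours, 2.63% to 2.85% at 12 hours and 0.113% to 0.203% at 24 hours. Among markers of luminal prostate epithelium, Hoxb13 had 67.6 to 104 CPM and Krt8 had 24.8 to 42.2 CPM, whereas Epcam (0 to 1 counts), Cdh1 (0 to 10) and Krt18 (2 to 22) were at or near 0, so several defining markers of the labeled cell type were absent. Markers of endothelium summed to at most 0.183 CPM and those of leukocytes to at most 0.794 CPM in a library, and those of fibroblasts to 9.09 to 14.1 CPM, nearly all of it Pdgfra, with Col1a1 at 0 to 8 and Pdgfrb at 0 to 3 counts. The part of these shifts in the changes at 24 hours described here was not tested.

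A gene was called when its Benjamini-Hochberg adjusted p over all tested genes was 0.05 or less in edgeR's quasi-likelihood test and its level differed at least 1.5-fold. After 12 hours, 1 of the 10 genes was called, Bid, which rose, where 1.60% of all tested genes were called, 1.5% higher and 0.0964% lower. After 24 hours, 2 of 10 were called relative to 0 hours, Bcl2l11 and Bmf, which both fell, where 28.8% of all tested genes were called and 16.8% were called lower and 12.0% higher. From 12 to 24 hours, 3 of 10 were called, all of them lower (Bid, Bcl2l11 and Bmf), beside 25.7% of all tested genes called, 15.3% lower and 10.4% higher. The shares of members called at 24 hours are thus near that of all genes and are no result about the family. The other members differed at 24 hours by less than 1.5-fold. The 3 anti-apoptotic genes were lower and the 2 effector genes were higher than at 0 hours. Each had an adjusted p of 0.05 or less and no overlap between the libraries of both times. Of all tested genes, 70.9% had such an adjusted p and 73.9% had no overlap, so neither sets these genes apart. Bax with total-count scaling and Bcl2 after a length and GC correction did not pass this adjusted p.

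**Figure D1:**
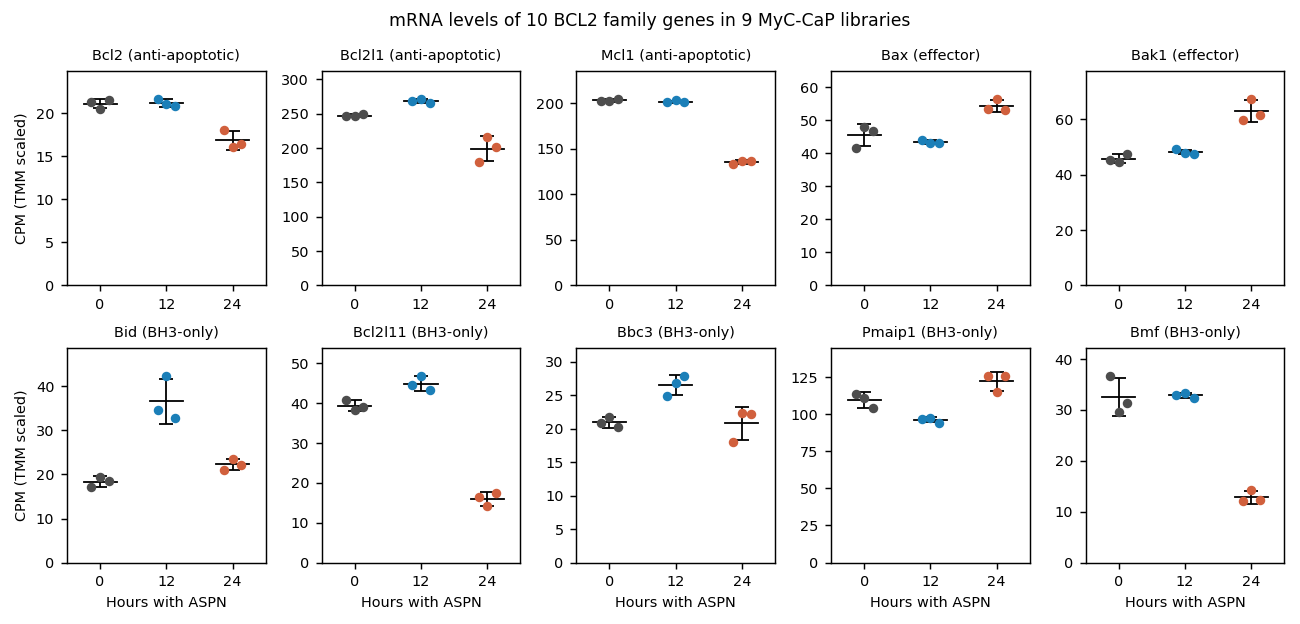
Level of each of the 10 genes (y axis, CPM scaled with TMM factors, each panel from 0) against hours with ASPN (x axis). Points are single libraries, the line is the mean and the bars are the SD of 3 libraries. Bid was highest at 12 hours (32.9 to 42.4 CPM), and Bcl2l11 (14.1 to 17.4 CPM) and Bmf (12.0 to 14.3 CPM) were lowest at 24 hours.

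Bid (ENSMUSG00000004446.12; chromosome 6, 120891930 to 120916853 in GRCm38, minus strand) encodes the member that death receptors engage, since caspase-8 cleaves it. Its level was 17.2, 19.5 and 18.5 CPM in the 3 libraries of 0 hours, 34.6, 42.4 and 32.9 CPM at 12 hours, and 21.1, 23.5 and 22.2 CPM at 24 hours. All 3 libraries of 12 hours were above all others, and those of 24 hours were above those of 0 hours by a small margin. The log2 fold change was 1.00 at 12 hours (SE 0.079, adjusted p = 1.2e-07), a value above that of 99.0% of all tested genes, and 0.28 at 24 hours (SE 0.070, adjusted p = 0.0028), where total-count scaling gave 0.06 (adjusted p = 0.51). From 12 to 24 hours Bid fell by 0.70 on the log2 scale (SE 0.084, adjusted p = 6.3e-06). This fall rests in part on replicate 2 of 12 hours, the highest library, without which it was -0.58 and just short of 1.5-fold. The exons of Bid share 628 bases (17.7% of its exon length) with those of Bcl2l13 on the opposite strand, and whether reads were counted by strand is not given in the sources used here. Bcl2l13 itself had a log2 fold change of 0.04 at 12 hours (SE 0.038, adjusted p = 0.60) and 0.18 at 24 hours (SE 0.043).

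Bcl2l11 (ENSMUSG00000027381.16; chromosome 2, 128126038 to 128162547, plus strand), which encodes BIM, had 40.9, 38.2 and 39.1 CPM at 0 hours, 44.5, 46.9 and 43.3 CPM at 12 hours, and 16.4, 14.1 and 17.4 CPM at 24 hours. The 3 times did not overlap, with 12 hours highest and 24 hours lowest. Relative to 0 hours the log2 fold change was 0.19 at 12 hours (SE 0.045, adjusted p = 0.0090, but 0.092 in a joint fit of all 9 libraries and 0.080 without replicate 2 of 12 hours) and -1.30 at 24 hours (SE 0.075, adjusted p = 5.0e-09), a 2.46-fold lower level. The fall from 12 to 24 hours was larger, by -1.47 on the log2 scale (SE 0.072, adjusted p = 1.1e-09), or 2.77-fold. Of all genes tested, 2.40% had a more negative value than Bcl2l11 in this comparison. As in any bulk RNA sample, less of an mRNA in each cell and fewer of the cells that hold it cannot be told apart.

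Bmf (ENSMUSG00000040093.16; chromosome 2, 118528757 to 118549687, minus strand) had 36.7, 29.5 and 31.3 CPM at 0 hours, 32.9, 33.3 and 32.4 CPM at 12 hours, and 12.0, 14.3 and 12.2 CPM at 24 hours. Levels at 0 and 12 hours overlapped and all 3 libraries of 24 hours lay below them. Its log2 fold change was 0.02 at 12 hours (95% confidence interval -0.12 to 0.16) and -1.33 at 24 hours (SE 0.091, adjusted p = 2.6e-08), which is 2.52-fold lower. From 12 to 24 hours the value was also -1.33 (SE 0.069, adjusted p = 1.7e-09). Bmf and Bcl2l11, whose proteins both bind dynein light chains, thus fell by similar amounts, with 95% intervals of -1.53 to -1.13 and -1.46 to -1.14 against 0 hours.

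The other BH3-only genes moved less. Bbc3 (ENSMUSG00000002083.13; chromosome 7, 16308393 to 16318205, plus strand) had 20.9, 21.8 and 20.2 CPM at 0 hours, 24.9, 26.8 and 27.9 CPM at 12 hours, and 18, 22.3 and 22.2 CPM at 24 hours. The 12 hour libraries were above all others, at 1.27 times the level of 0 hours (0.34 on the log2 scale, SE 0.057, edgeR adjusted p = 5.2e-04). At 24 hours the value was 0.00 with a 95% confidence interval of -0.18 to 0.17, and its sign depended on the settings, from -0.23 with total-count scaling to 0.21 once transcript length and GC content were corrected for. Pmaip1 (ENSMUSG00000024521.8), whose protein NOXA promotes the turnover of MCL1, was the most abundant BH3-only mRNA, with 104 to 114 CPM at 0 hours, 94.4 to 97.6 CPM at 12 hours and 115 to 126 CPM at 24 hours. The 12 hour libraries were lowest and the 24 hour libraries highest, without overlap. Its log2 fold change was -0.18 at 12 hours (SE 0.037, adjusted p = 0.0031), 0.16 at 24 hours (SE 0.049, adjusted p = 0.010) and 0.37 from 12 to 24 hours (SE 0.042, adjusted p = 4.1e-06), all short of 1.5-fold, and at 24 hours against 0 hours it was -0.06 with total-count scaling.

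Among the anti-apoptotic genes, Mcl1 (ENSMUSG00000038612.16; chromosome 3, 95658788 to 95663176, plus strand), which encodes a protein of short lifetime, had 202, 202 and 205 CPM at 0 hours, 201, 203 and 201 CPM at 12 hours, and 133, 137 and 136 CPM at 24 hours. The libraries of 0 and 12 hours overlapped and those of 24 hours lay below both. The log2 fold change at 24 hours was -0.58 (SE 0.038, adjusted p = 1.6e-08), or 1.49-fold, so that Mcl1 missed the call by its size alone and passed it with total-count scaling (-0.80). At 12 hours its log2 fold change was -0.01 (95% confidence interval -0.07 to 0.06). Bcl2l1 (ENSMUSG00000007659.18; chromosome 2, 152780668 to 152831728, minus strand) had 246, 246 and 250 CPM at 0 hours, 268, 272 and 266 CPM at 12 hours, and 180, 216 and 201 CPM at 24 hours, with no overlap between any 2 times. On the log2 scale it was higher at 12 hours by 0.13 (SE 0.030, adjusted p = 0.011, but 0.18 in edgeR's joint fit of all 9 libraries) and lower at 24 hours by -0.31 (SE 0.055, adjusted p = 2.3e-04), both short of 1.5-fold. The replicates of 24 hours were more spread (SD 18 CPM) than those of 0 hours (SD 2.6 CPM). Bcl2 (ENSMUSG00000057329.7; chromosome 1, 106538178 to 106714274, minus strand) had 20.5 to 21.5 CPM at 0 hours, 20.8 to 21.7 CPM at 12 hours and 16.1 to 18.1 CPM at 24 hours. It did not differ detectably at 12 hours (log2 fold change 0.01, 95% confidence interval -0.11 to 0.13) and was lower at 24 hours by -0.32 (SE 0.069, adjusted p = 8.8e-04), a value that became -0.14 (edgeR adjusted p = 0.063) after the length and GC correction.

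The effectors moved the other way. Bak1 (ENSMUSG00000057789.14; chromosome 17, 27019810 to 27029009, minus strand) had 45.3, 44.6 and 47.6 CPM at 0 hours, 49.2, 48.0 and 47.6 CPM at 12 hours, and 59.7, 67.5 and 61.7 CPM at 24 hours. The 24 hour libraries lay above all others. The log2 fold change was 0.08 at 12 hours (SE 0.040, adjusted p = 0.29) and 0.46 at 24 hours (SE 0.054, adjusted p = 4.5e-06), or 1.38-fold, and it stayed positive under every setting tried (0.24 to 0.56). A stretch of 614 bases of Bak1 exon, 25.5% of its length, is also exon of Ggnbp1 on the opposite strand, which is listed under 2 identifiers with 50 to 74 and 0 to 3 counts per library. Bax (ENSMUSG00000003873.11; chromosome 7, 45461697 to 45466898, minus strand) had 41.7, 47.8 and 46.8 CPM at 0 hours, 44.1, 43.2 and 43.0 CPM at 12 hours, and 53.3, 56.5 and 53 CPM at 24 hours. Of the Bax exons, 192 bases (12.2% of their length) are also exon of Gm45808 on the same strand. The 0 and 12 hour libraries of Bax overlapped and those of 24 hours were higher. The log2 fold change of Bax was -0.06 at 12 hours (95% confidence interval -0.16 to 0.04) and 0.26 at 24 hours (SE 0.058, adjusted p = 0.0012), and this second value shrank to 0.04 (edgeR adjusted p = 0.60) with total-count scaling.

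**Figure D2:**
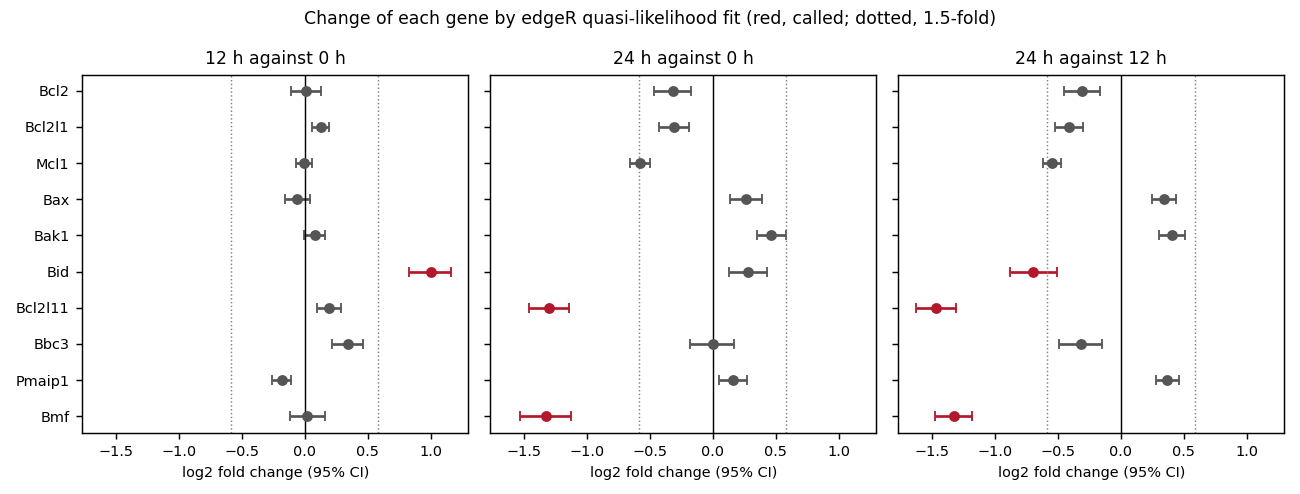
Log2 fold change (x axis) of each gene (y axis) in the 3 comparisons, with 95% confidence intervals from edgeR's quasi-likelihood fit. Red marks called genes and the dotted lines mark 1.5-fold. Bid alone was called at 12 hours (1.00), and at 24 hours Bcl2l11 (-1.30) and Bmf (-1.33) were called while Mcl1 (-0.58) lay at the line.

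Promoters (250 bases before to 50 after an annotated start, RefSeq on GRCm38.p6) were found for 9 of the 10 genes, 16 in all, and searched on both strands for binding motifs of factors known to act on this family. FOXO factors are known to induce Bcl2l11 and Bbc3, and the FOXO core GTAAACA was present in 2 of the 16 promoters, 1 each of these genes, where 3.65% of all 32851 promoters hold it. The p53 motif, searched as its single 10-base unit, was present in 1 promoter each of Bax and Bmf (8.36% of all promoters). The NF-kB consensus was present in 3, of Bcl2l1, Bbc3 and Bmf (8.46%), with overlapping matches in Bbc3. The E-box CACGTG, a site that MYC can bind, was in promoters of Bax and Bbc3 (7.15%), and the AP-1 site TGANTCA in none of the 16 (7.81%). The promoter of Bid held none of the 5 motifs. The stretches of 40 bases that hold the FOXO cores, and those with the p53 units of Bax and Bmf, are shown because they belong to Bcl2l11 and Bmf, the members called lower at 24 hours, and to Bbc3 and Bax, which were not called. Those of Bmf and Bbc3 precede alternative starts that lie inside the gene. The match is in capitals, read 5′ to 3′ on the strand of the gene.
Bcl2l11, FOXO, chr2:128125794-128125833, plus strand: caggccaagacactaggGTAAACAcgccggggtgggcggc
Bbc3, FOXO, chr7:16310077-16310116, plus strand: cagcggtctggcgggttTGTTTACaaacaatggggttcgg
Bax, p53, chr7:45467075-45467114, minus strand: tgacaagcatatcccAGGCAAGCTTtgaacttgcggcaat
Bmf, p53, chr2:118544776-118544815, minus strand: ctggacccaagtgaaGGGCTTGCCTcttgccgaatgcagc
Counted from the annotated start of the transcript, the matches begin at -227 (Bcl2l11), -167 (Bbc3), -201 (Bax) and -213 (Bmf). In Bbc3 the core lies on the opposite strand. A match only says that these letters are present. Bcl2l11, with a FOXO core, was 2.46-fold lower at 24 hours. Bbc3, which also has one, had a log2 fold change of 0.00, and -0.23 to 0.21 under other settings. Whether FOXO factors have a part in either value was not tested.

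By the adjusted p alone, 5 of the 10 genes differed at 12 hours (Bid, Bbc3, Bcl2l11 and Bcl2l1 higher, Pmaip1 lower), where 10.3% of all tested genes did. The libraries of 0 and 12 hours did not overlap for the same 5 genes, compared with 27.0% of all tested genes. In the joint fit of 9 libraries 3 of the 10 passed, without Bcl2l1 (adjusted p = 0.18) and Bcl2l11, and the same 3 passed when replicate 2 of 12 hours was left out. Bcl2l1 also did not pass without replicate 1 of 12 hours (adjusted p = 0.052) or with the length and GC correction combined with a replicate block (edgeR adjusted p = 0.089). At 24 hours, 9 of 10 had an adjusted p of 0.05 or less (5 lower, 4 higher), against 70.9% of all genes, and Bbc3 was the exception. With total-count scaling Bax, Bid and Pmaip1 did not pass and Bbc3 did, leaving 6 lower and 1 higher. After the length and GC correction Bcl2 and Pmaip1 did not pass and Bbc3 did, with 4 lower and 4 higher. Without replicate 3 of 24 hours Pmaip1 did not pass (adjusted p = 0.052). Between 12 and 24 hours all 10 did (7 lower, 3 higher), against 71.3%, and Bcl2 did not after the length and GC correction (adjusted p = 0.069). The libraries did not overlap for the same 9 and 10 genes, compared with 73.9% of all tested genes in both comparisons. The median log2 fold change of the 10 genes was 0.05 at 12 hours, -0.15 at 24 hours and -0.37 from 12 to 24 hours, beside 0.00, -0.02 and 0.00 over all tested genes. At 24 hours total-count scaling, which applies no correction for composition, moved the median of all genes to -0.24, and calls that were higher made up 18.8% of all calls with this scaling, 41.7% with TMM factors and 50.4% after the length and GC correction.

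**Figure D3:**
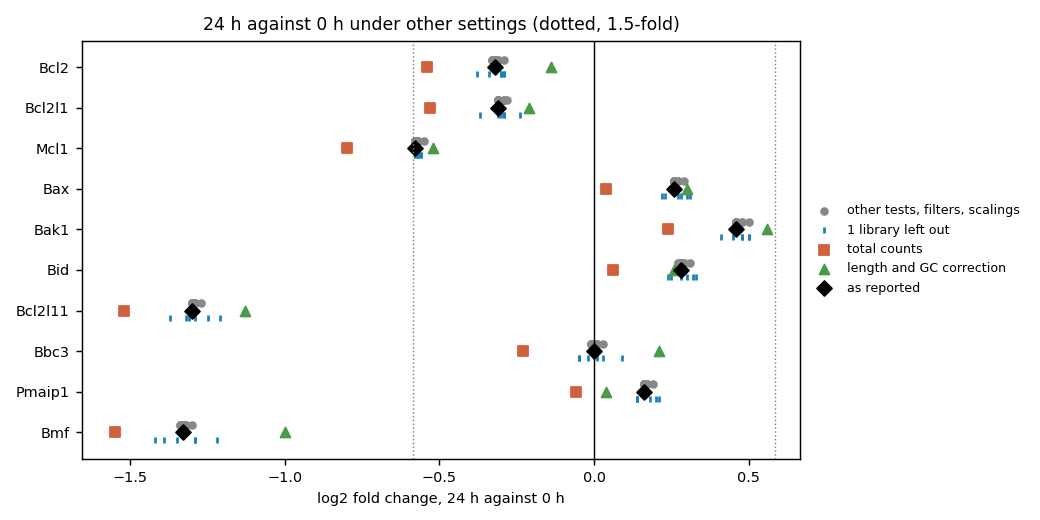
Log2 fold change at 24 hours against 0 hours (x axis) of each gene (y axis) as reported (black), with 1 library left out (blue), with total-count scaling (orange), after the length and GC correction (green) and under the other tests, filters and scalings (grey). Bcl2l11 and Bmf lay beyond the dotted 1.5-fold line in every case, and Bbc3 and Pmaip1 took both signs.

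Because each library carries its own scale, ratios of 2 members within a library were also computed from the counts, which no scaling factor can change. The log2 ratio of Mcl1 to Bak1 was 2.16, 2.18 and 2.10 at 0 hours, 2.03, 2.08 and 2.08 at 12 hours, and 1.16, 1.02 and 1.14 at 24 hours. The ratio was thus lower in each 24 hour library than in any other, by a mean of -1.04 against 0 hours. The log2 ratio of Mcl1 to Bax changed by a mean of -0.84, that of Bcl2l1 to Bak1 by -0.77 and that of Bcl2l1 to Bax by -0.57 at 24 hours, and in all of these the 24 hour libraries lay below every library of 0 hours. At 12 hours the same 4 mean differences were between -0.08 and 0.18. Bcl2l11 also dropped relative to Mcl1, from a mean log2 ratio of -2.36 ± 0.05 at 0 hours and -2.17 ± 0.05 after 12 hours to -3.09 ± 0.17 after 24 hours (SD over 3 libraries). These ratios are given as a description, and no test was run on them.

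Levels of different genes were compared as CPM per kilobase of annotated exon, an order that depends on the length used. With the length of the longest transcript Bcl2l1 ranked first at all 3 times, Mcl1 followed it at 0 and 12 hours, and at 24 hours Bax and Pmaip1 came between them. At 0 hours Mcl1 was highest (59.3 ± 0.43, SD, n = 3), followed by Bcl2l1 (53.9 ± 0.57), Pmaip1 (40.2 ± 1.8), Bax (28.8 ± 2.1), Bak1 (19.0 ± 0.65), Bbc3 (9.88 ± 0.38), Bmf (6.18 ± 0.71), Bid (5.18 ± 0.33), Bcl2l11 (4.91 ± 0.17) and Bcl2 (2.30 ± 0.059). All neighbors in this order were separated beyond the range of their libraries except Bid and Bcl2l11. At 12 hours Bid (10.3 ± 1.4) overlapped with Bbc3 (12.5 ± 0.71) and Mcl1 with Bcl2l1. At 24 hours Pmaip1 (44.8 ± 2.2), Bcl2l1 (43.4 ± 3.9) and Mcl1 (39.6 ± 0.53) were the highest, where Pmaip1 overlapped with Bcl2l1 and Bcl2l1 with Mcl1, and Bcl2l11 (1.99 ± 0.22) had come down to the level of Bcl2 (1.84 ± 0.12). Bcl2 was the lowest at all 3 times with either length.

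Summed over the 10 genes on this per-kilobase scale, the 3 anti-apoptotic genes made up 50.3% ± 0.49 (SD over 3 libraries) at 0 hours, 50.5% ± 0.24 after 12 hours and 40.2% ± 0.79 after 24 hours. The 2 effectors made up 20.8% ± 0.92, 20.1% ± 0.39 and 28.8% ± 0.79. The 5 BH3-only genes together took 28.9% ± 1.1, 29.4% ± 0.55 and 31.0% ± 1.3, a total of which Pmaip1 was the largest part at each time. The first 2 shares at 24 hours were therefore outside the range of the earlier libraries, and the BH3-only share overlapped with it. These shares were computed with the length of all annotated exons only, and the SDs do not cover the choice of length.

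**Figure D4:**
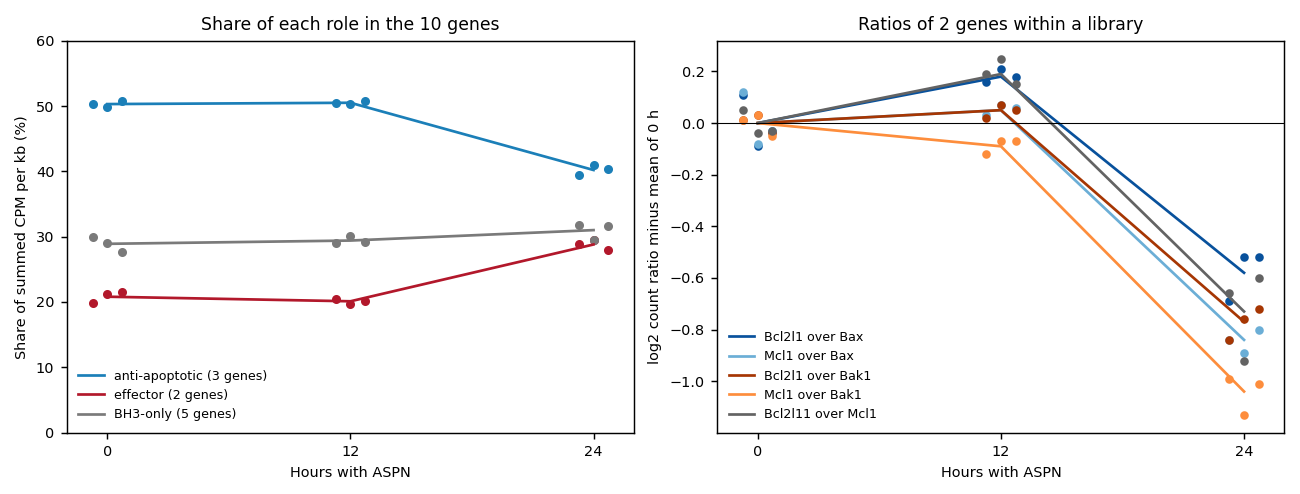
Left, share of each role in the summed CPM per kilobase of the 10 genes (y axis, percent) against hours with ASPN. Right, log2 count ratio of 2 genes within a library, relative to its mean at 0 hours. Points are libraries and lines join the means. Anti-apoptotic genes took 50.3% at 0 hours and 40.2% at 24 hours, and the ratio of Mcl1 to Bak1 was lower by 1.04 on the log2 scale.

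The transcription factors that control BH3-only genes were followed as a list of 8, of which 7 were tested. At 12 hours 0 of 7 were called, and at 24 hours 3 were called higher and 2 lower against 0 hours, with a median log2 fold change of 0.30. The counts of this list and of those that follow stand beside 1.60% of all tested genes called at 12 hours and 28.8% at 24 hours (12.0% higher and 16.8% lower), and no list was tested against other genes. Atf4, the factor of the integrated stress response, rose from 247 ± 14 to 590 ± 25 CPM (SD, n = 3; log2 fold change 1.26, SE 0.050, adjusted p = 2.5e-10). Its partner Ddit3 (CHOP), which can induce Bcl2l11 and Bbc3, had 6.79 ± 0.97 CPM at 0 hours and 11.1 ± 0.78 at 24 hours (log2 fold change 0.71, SE 0.11), and its value was 0.49 with total-count scaling and 0.55 once length and GC content were corrected for, both short of the call. E2f1 rose by 0.81 (SE 0.079). Foxo4 (-0.70, SE 0.043) and Foxo3 (-0.66, SE 0.062) fell, but after the length and GC correction these values were -0.54 and -0.18, short of 1.5-fold. Foxo3, the fifth of the list by size of change, was named after its value was seen.

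Of 15 other BCL2 family genes, 11 are in the table and 7 were tested at 12 and 24 hours against 0 hours. At 12 hours 0 of 7 were called, and at 24 hours 1 was called lower, Bcl2l12, with 122 to 194 counts per library at 0 hours and 73 to 127 at 24 hours, which overlap. Its log2 fold change of -0.59 (SE 0.20, adjusted p = 0.018) was -0.46 without replicate 1 of 24 hours, -0.41 without replicate 2 and -0.56 without replicate 3 of 0 hours, and -0.58 with DESeq2, all short of the call. Bcl2a1a, Bcl2a1b, Bcl2a1d and Hrk were not analysed here.

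Downstream of the pore, 8 of 9 genes of the apoptosome and of mitochondrial release were tested. At 12 hours 0 were called, and at 24 hours the voltage-dependent anion channels Vdac2, which holds BAK at the outer membrane, and Vdac3 were called higher. Vdac2 had 176 ± 5.0 CPM (SD, n = 3) at 0 hours and 276 ± 2.3 at 24 hours (log2 fold change 0.66, SE 0.039), and Vdac3 had 105 ± 2.3 and 169 ± 2.7 CPM (0.69, SE 0.039). With total-count scaling these values were 0.44 and 0.47, and they were 0.53 and 0.56 with length and GC content corrected for, all short of 1.5-fold. The median of the 8 genes at 24 hours was 0.44. Of the 7 caspases tested at 24 hours, Casp9, the caspase that the apoptosome activates, fell from 13.5 ± 0.39 to 7.99 ± 0.34 CPM (SD, n = 3; log2 fold change -0.75, SE 0.082, adjusted p = 2.3e-06; -0.53 after the length and GC correction). Casp12 was called higher (0.68, SE 0.086), but its value was 0.46 with total-count scaling and 0.57 once length and GC content were corrected for, both short of 1.5-fold. Casp4 had 1 to 7 counts per library at 0 hours, 18 to 49 at 12 hours and 30 to 38 at 24 hours. It passed the filter on low counts only through the libraries where it was high, so its call at both times is not counted as a result and no fold is given.

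The list of inhibitor of apoptosis proteins had 1 of 5 tested genes called lower at 24 hours, Birc2 (25.6 ± 1.2 to 16.6 ± 1.7 CPM, SD, n = 3; log2 fold change -0.62, SE 0.078), and 1 called higher, Naip2 (2.73 ± 0.18 to 4.87 ± 0.24 CPM; 0.84, SE 0.13). Birc2 was -0.54 without replicate 2 of 24 hours and -0.58 without replicate 2 of 0 hours, both short of 1.5-fold. At 12 hours 0 of the 5 were called. In the death receptor pathway, which feeds into BID, 2 of 7 tested genes were called higher at 12 hours, Tnfsf10 and Fas. Tnfsf10, which encodes the death ligand TRAIL, had 227 to 268 counts per library at 0 hours, 1014 to 1575 at 12 hours and 287 to 366 at 24 hours. Its 12 hour value was 2.54 on the log2 scale (SE 0.11, edgeR adjusted p = 8.6e-11). The receptor gene Fas had 0 to 5 counts at 0 hours and 12 to 22 at 12 hours and passed the filter only through the latter, so its call is not counted as a result either and no fold is given. At 24 hours 0 of 6 genes of this pathway were called against 0 hours. Among 8 regulators of MCL1 and BIM protein, Fbxw7, which marks MCL1 for destruction, fell from 64.6 ± 0.68 to 16.7 ± 0.47 CPM (SD, n = 3) at 24 hours (log2 fold change -1.95, SE 0.051, adjusted p = 6.9e-12), and 0 of the 8 were called at 12 hours.

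The genes whose levels most resembled those of the 3 members with the largest range were found by Pearson correlation of log2 CPM over the 9 libraries, among 10845 genes with at least 10 counts in every library. These correlations are a description, since the 9 libraries share 3 times and most of each correlation comes from the step between times. For Bid the highest was Tnfsf10 (r = 0.985), which had 4.96 ± 0.27, 28.7 ± 5.4 and 7.33 ± 0.36 CPM (SD, n = 3) at the 3 times, followed by Psd (r = 0.971) and Il34 (r = 0.964). For Bcl2l11 they were Acsl1 (r = 0.997), B4galt6 (r = 0.996) and Chd4 (r = 0.996), and Acsl1 had 281 ± 4.0, 302 ± 13 and 164 ± 13 CPM. For Bmf they were Prps1l3, Lrp6 and 2610507B11Rik, each with r = 0.997, and Lrp6 had 74.8 ± 2.6, 76.7 ± 0.46 and 44.6 ± 2.2 CPM.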

How the data were processed

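The deposited table holds raw counts of protein-coding genes, which the authors obtained from poly(A)-selected paired-end libraries with Cutadapt, STAR on GRCm38.p6 and featureCounts. Strand setting and handling of reads that map to several genes are not given in the sources used here.

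Members and gene lists were chosen with earlier results of these data known. Libraries were grouped by the times in the sample labels, 3 per time. In R 4.3.3, edgeR 4.0.16 was used on the whole table (filterByExpr, TMM scaling, quasi-likelihood test without a block) on the 6 libraries of each of 3 comparisons, with Benjamini-Hochberg adjustment over all tested genes and calls at adjusted p of 0.05 or less and 1.5-fold. CPM values were TMM scaled over 9 libraries, and errors are SDs of 3 libraries or SEs of the fit. Exon lengths and overlaps came from GENCODE M21, in which 15374 of 15384 genes were found (99.9%).

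Named were all 10 members, the called genes of fixed lists (at most the 4 with the largest change per list and comparison) and the 3 genes most like each of the 3 members with the widest range. Alternatives were DESeq2 1.42.0, limma-voom (limma 3.58.1), RLE and upper-quartile factors, total counts, other filters, a joint fit of the 9 libraries, a replicate block, the adjusted p alone, loess offsets for transcript length and GC content (span 0.3), each library left out and, added after seeing the data, removal of the 13 mitochondrially encoded genes. Scripts were tested on simulated data. Protein sequences were not analysed here. Replicates of a time differed by more than counting noise (chi-square per degree of freedom 3.41 to 17.5), so each library counted as 1 replicate. Some genes of the luminal marker list are not reported here.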

Additional observations from a re-analysis of the deposited data

Results flagged for a closer look

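The change from 0 hours differed between 12 and 24 hours, by the test of 24 against 12 hours (edgeR's quasi-likelihood test), with an adjusted p of 0.05 or less for all 10 genes (71.3% of all tested genes), and by at least 1.5-fold for 3 of them, where 25.7% of all tested genes were called. For Bid the difference was -0.70 on the log2 scale (1.00 at 12 hours and 0.28 at 24 hours), for Bcl2l11 it was -1.47 (0.19 and -1.30) and for Bmf it was -1.33 (0.02 and -1.33). The values at 12 and 24 hours share the 0 hour libraries, but their difference does not use them.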

How the results depend on the processing

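Of 540 values of the 10 genes under alternatives or with 1 library left out, 519 kept their direction and their side of the call (adjusted p and 1.5-fold together), and the calls of Bid at 12 hours and of Bcl2l11 and Bmf at 24 hours held in all of them. With the adjusted p alone, 5, 9 and 10 genes were called at 12 hours, at 24 hours and between both, in place of 1, 2 and 3, and between 12 and 24 hours 5 were called with total counts. With 1 library left out, 1, 2 and 2 to 3 genes were called. The 17 reversals were of Bcl2 and Bmf at 12 hours and of Bbc3 and Pmaip1 at 24 hours. Bcl2 at 12 hours was 0.00 with upper-quartile factors and -0.01 with total counts and with the length and GC correction, alone and with the replicate block, and -0.01 to 0.02 with 1 library left out. Bmf at 12 hours was -0.04 to 0.12 with 1 library left out, with the negative values without replicate 2 or 3 of 0 hours. Bbc3 at 24 hours was 0.01 with DESeq2 and RLE factors, 0.03 with upper-quartile factors, 0.21 with the length and GC correction (adjusted p = 0.012), also when the replicate block was added to that correction (adjusted p = 0.025), and -0.05 to 0.09 with 1 library left out. Pmaip1 at 24 hours was -0.06 with total counts, in place of 0.16. With lengths of the longest transcript in place of all exons, 4, 2 and 4 of the 10 genes kept their rank per kilobase at 0, 12 and 24 hours, whereas the 3 other scalings kept all 10. Of the 14 list genes called against 0 hours, Casp4 and Fas not included, 225 of 252 values kept the call, and Tnfsf10, Naip2, Fbxw7, E2f1 and Atf4 kept it throughout. Same-numbered libraries did not deviate together (correlations of -0.10 to 0.06), and the replicate block left 1, 2 and 3 genes called. Removing the mitochondrially encoded genes changed no call of a member. Causes were not tested. Depth does not limit these genes, whereas Casp4 and Fas have too few counts for a fold.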
